A study of Mus musculus with 2 samples.

Results

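GATA3 binding was mapped over 4 stretches of the mouse genome that hold Irf4, Batf, Spi1 and Irf8, the genes of 4 transcription factors of the T helper 9 programme. Each gene is represented by a fixed window on the mm9 build. The Irf4 window covers chr13:30800001-30900000, the Batf window chr12:87000001-87080000, the Spi1 window chr2:90900001-90980000 and the Irf8 window chr8:123230001-123350000. The windows were set by position and not by signal, and together they span 380 kb. They held 42 of the 110381 GATA3 sites called over the genome. The series has 2 chromatin immunoprecipitation libraries made with a GATA3 antibody, 1 per condition. Both come from CD4+ T cells of C57BL/6 mice that were CD25-negative and CD62L-positive when sorted with magnetic beads, and the labels name no altered allele. Antibodies to CD3 and CD28, each at 1 µg/ml, are listed for the cells of both libraries. The first, called here the IL-4 library, comes from cells given TGF-β1 at 2 ng/ml together with IL-4 at 10 ng/ml. The second, called here the comparison library, has no treatment named in its labels. Since the shared protocol text allows TGF-β1 without IL-4, it is not known whether those cells had TGF-β1 alone or no cytokine. Neither the number of mice nor any pooling is given, and the cell type label could not be set against RNA markers because the files hold DNA reads.

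GATA3 is a zinc-finger factor induced downstream of IL-4 and STAT6, and it binds DNA at GATA letters. T helper 9 cells arise under TGF-β with IL-4 and are known for secreting IL-9. IRF4 and IRF8 are interferon regulatory factors, and these 2 members bind weakly alone and act with partners. BATF, a small AP-1 factor, pairs with JUN proteins and with IRF4 at composite sites in activated T cells. Spi1 encodes PU.1, an ETS family factor best known from myeloid and B cells, which also promotes IL-9 in T helper 9 cells. The comparison asks where GATA3 sat at the genes of these factors and how that differed between the libraries.

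The sequences before the starts of Batf and Irf4 are given to show what GATA letters look like at these genes, as they have the largest numbers of sites. They come from a RefSeq table on GRCm38.p6 in which 3 of the 4 genes had an entry, 250 bases before the start on the plus strand, at chr12:85686470-85686719 for Batf and chr13:30748983-30749232 for Irf4. Capitals mark AGATAA or, with G as its last letter, AGATAG, and likewise TGATAA or, with G as its last letter, TGATAG, on either strand.
Batf: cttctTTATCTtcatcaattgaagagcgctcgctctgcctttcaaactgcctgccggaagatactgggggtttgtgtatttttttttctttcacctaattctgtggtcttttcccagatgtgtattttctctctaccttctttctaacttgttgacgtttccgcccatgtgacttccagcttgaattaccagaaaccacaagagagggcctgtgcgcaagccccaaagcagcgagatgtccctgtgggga
Irf4: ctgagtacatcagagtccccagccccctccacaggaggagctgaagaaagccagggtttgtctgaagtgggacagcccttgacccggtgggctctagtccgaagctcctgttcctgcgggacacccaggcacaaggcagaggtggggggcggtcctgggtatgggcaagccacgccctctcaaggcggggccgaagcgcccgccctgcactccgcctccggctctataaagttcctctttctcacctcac
The Batf sequence holds 1 match, which begins 245 bases before the start and reads AGATAA on the minus strand. The Irf4 sequence holds 0, and so do both listed starts of Irf8. Of 32851 such sequences in the table, 26.5% hold at least 1 match. GC content was 46.4% before Batf and 63.6% before Irf4. Because these sequences are on another build than the reads, no GATA3 site could be placed on them, and sites are given below by mm9 position alone, without exons or introns. In gene order on GRCm38, Irf4 lies between Dusp22 and Exoc2, Batf between Jdp2 and Flvcr2, Spi1 between Slc39a13 and Mybpc3, and Irf8 between Cox4i1 and Foxf1, and a site in a window may lie in or nearer to such a neighbour.

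Depth was 22963959 reads on the nuclear chromosomes for the comparison library and 15561681 for the IL-4 library. Signal is given as RPM, the number of reads per 1000000 reads of the library, with each read placed at the centre of its fragment, 63 bp inwards from its 5′ end. Ratios are IL-4 library over comparison library, with an exact (Clopper-Pearson) 95% interval from how the reads split. With 1 library per condition these intervals cover counting error only, no difference has a replicate check, and none was tested between conditions. Over the genome 12.1% of reads fell in sites in the comparison library and 16.7% in the IL-4 library. That is a ratio of 1.37 inside sites and 0.948 outside them.

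With scaling by total reads, read density was higher in the IL-4 library over Irf4 and Batf and lower over Spi1 and Irf8. The Irf4 window held 3815 reads (166 RPM) in the comparison library and 3429 (220.3 RPM) in the IL-4 library, a ratio of 1.33 (1.27 to 1.39). The Batf window held 2281 reads (99.3 RPM) and 1912 (123 RPM), a ratio of 1.24 (1.16 to 1.32). Spi1 and Irf8 had the opposite direction. The Spi1 window held 1710 reads (74.5 RPM) and 1020 (65.5 RPM), a ratio of 0.88 (0.814 to 0.952). The Irf8 window held 3294 reads (143 RPM) and 2071 (133 RPM), a ratio of 0.928 (0.878 to 0.981). When the libraries were scaled so that sites called in both had a median ratio of 1, Irf4 came to 1.01 (0.967 to 1.06) and Batf turned to 0.945 (0.888 to 1.00), while Spi1 and Irf8 stayed lower at 0.672 and 0.709. With scaling by reads outside sites Spi1 came to 0.928 (0.858 to 1.004) and Irf8 to 0.978 (0.926 to 1.034). Both of these intervals included 1. The order of the 4 windows does not depend on scaling, which multiplies every ratio alike. The intervals of Irf4 and Batf overlap each other, however, as do those of Spi1 and Irf8.

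All 4 ratios lay within the spread of the genome. Tiles were kept where at least 90% of their kilobase blocks held a read centre of either library. Among 19975 such tiles of 100 kb, the median ratio was 1.00, and the 5th and 95th percentiles were 0.766 and 1.40. The Irf4 ratio stood at percentile 90.9 of these tiles. Among tiles of the matching lengths Batf stood at percentile 82.8, Irf8 at 33.5 and Spi1 at 25.3. Total reads, inside and outside sites together, were high in each window. Most of them lay outside sites, above all at Spi1 (8.48% and 10.6% in sites) and Irf8 (14.5% and 20.1%). Without an input library this rank does not tell binding from background. Averaged over the libraries, the RPM of the window stood at percentile 99.9 for Irf4, 99.4 for Batf, 98.6 for Irf8 and 93 for Spi1. Per kb of window the Irf4 density was 1.66 RPM in the comparison library and 2.20 RPM in the IL-4 library, against 0.931 and 0.819 RPM at Spi1.

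**Figure D1:**
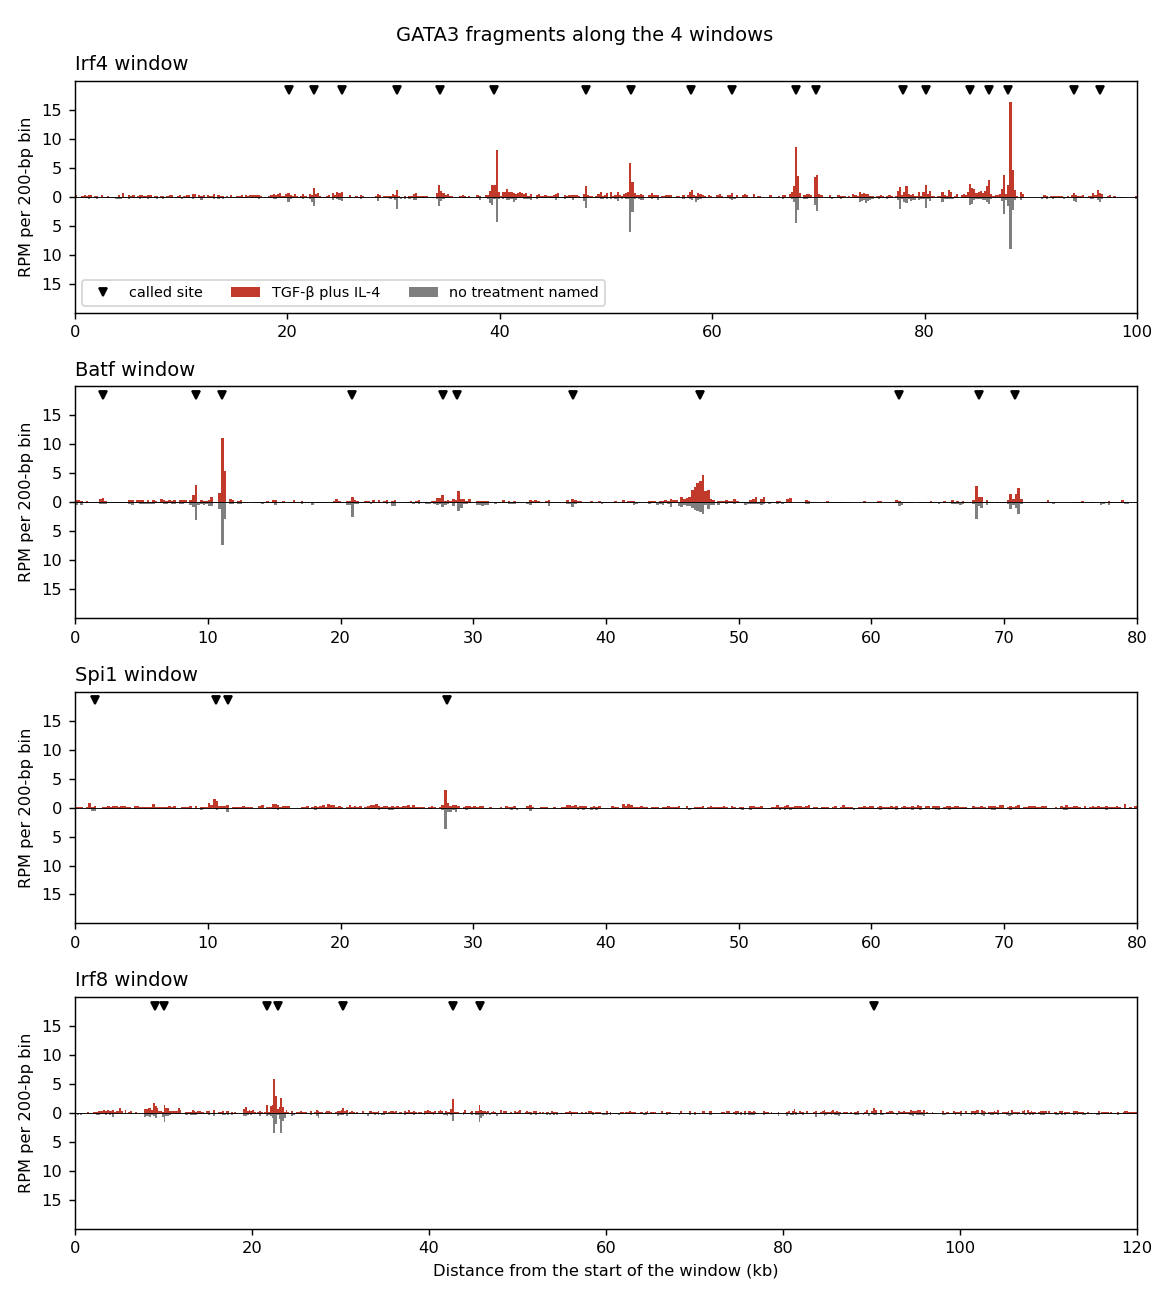
RPM per 200-bp bin along each window (x axis: kb from the start of the window), with the IL-4 library (TGF-β plus IL-4 in the key) upwards and the comparison library (no treatment named) downwards, on the same axis in all panels. Triangles mark called sites: 19 at Irf4, 11 at Batf, 4 at Spi1 and 8 at Irf8.

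Sites were dense at Irf4 and Batf and near the number of the median tile at Spi1 and Irf8. A site is a run of 200-bp bins in which the summed reads of both libraries, at equal depth, passed a Poisson test against the surrounding 10 kb at a Benjamini-Hochberg q under 0.01. Irf4 had 19 sites where the median tile of that length had 4, which put it at percentile 99.4. Batf had 11 against a median of 3 (percentile 93.5). Irf8 had 8 against 5 (percentile 61.2) and Spi1 had 4 against 3 (percentile 50.5). Sites took up 7.2% of the Irf4 window and held 39.0% of its reads in the comparison library and 43.8% in the IL-4 library. At Batf the shares were 41.4% and 48.4% of reads. Irf8 had only 14.5% and 20.1% of its reads in sites, and Spi1 8.48% and 10.6%.

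The ratio was higher inside sites than outside them at Irf4, Batf and Irf8, with intervals that do not overlap. Inside sites the ratio was 1.49 (1.39 to 1.60) at Irf4, 1.44 (1.32 to 1.58) at Batf, 1.28 (1.12 to 1.47) at Irf8 and 1.10 (0.849 to 1.42) at Spi1, beside 1.37 over all sites of the genome. Outside sites it was 1.22 (1.15 to 1.30) at Irf4, 1.09 (1.00 to 1.18) at Batf, 0.867 (0.815 to 0.922) at Irf8 and 0.86 (0.792 to 0.934) at Spi1, beside 0.948 over the genome. At Irf8 the direction was therefore opposite in the 2 kinds of sequence, with intervals that leave out 1 on either side. At Spi1 the interval inside sites overlapped the one outside and included 1. The Spi1 value of 1.10 rests on 1 site called in the IL-4 library alone, at chr2:90910401-90910800, and the other 3 sites held 130 and 69 reads, a ratio of 0.783 (0.576 to 1.06). Of the 8 Irf8 sites 4 were called in the IL-4 library alone, and the 4 called in both held 413 and 327 reads, a ratio of 1.17 (1.01 to 1.35). The libraries were also scaled so that sites called in both had a median of 1. The ratios inside sites were then 1.14 at Irf4, 1.10 at Batf, 0.981 at Irf8 and 0.839 at Spi1. Those outside all fell below 1, so the opposite signs at Irf8 do not hold under this scaling. With total reads as the scale, Irf4 had the highest ratio outside sites of the 4 windows, and its interval did not reach those of Irf8 and Spi1.

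**Figure D2:**
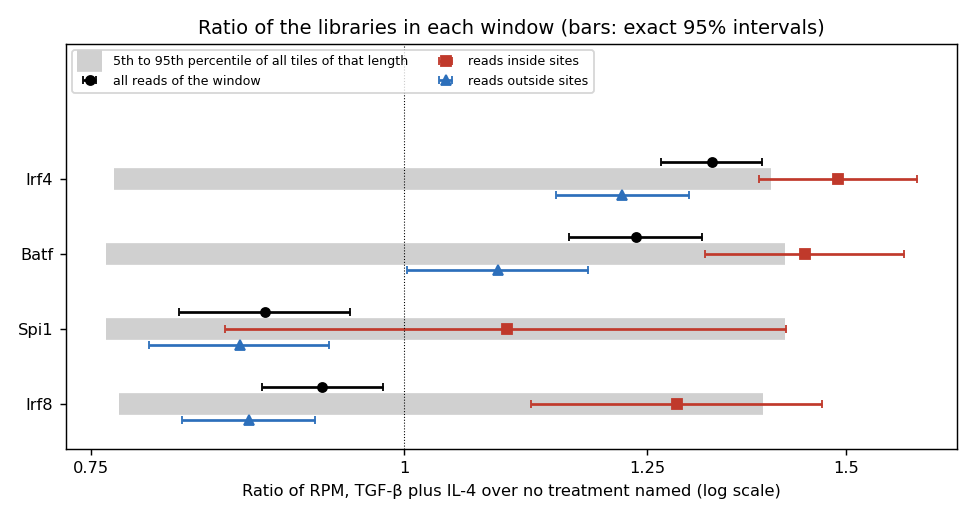
Ratio of RPM (log axis, IL-4 library over comparison library) for all reads of a window (circles), reads inside sites (squares) and reads outside sites (triangles), with exact 95% intervals of counting error. Grey bars run from the 5th to the 95th percentile of all genome tiles of the same length. The squares lie right of the triangles, with intervals that overlap at Spi1 alone, where the side of 1 on which the square lies rests on 1 site. At Irf8 they lie on opposite sides of 1.

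Most single sites differed by less than 2-fold. To pass as higher, a site needed a ratio of 2 or more, and to pass as lower 0.5 or less, with an interval that left out 1. By that rule 7 of the 42 sites were higher (16.7%), against 12.4% of all sites of the genome, and 1 was lower (2.38%), against 1.86%. These shares are near those of the genome. Of the 7 higher sites 5 were called in the IL-4 library alone, so the summed reads that made them sites came mostly from the library in which they are high. Among the 25 sites called in both libraries, a restriction chosen after seeing the data, 2 were higher (8%) and 1 was lower (4%), against 11.2% and 1.04% of all 31408 such sites. With sites called in both libraries scaled to a median of 1, 1 site passed as higher, at Spi1, and 3 as lower, against 4.88% and 5.24% of all sites. Of the 7, 3 were at Irf4, 2 at Batf, 1 at Spi1 and 1 at Irf8, and the lower site was at Batf. A ratio over 1 was found at 28 of the 42 (66.7%), against 67.1% of all sites. The interval left out 1 at 16 sites (38.1%, against 21.4% of all sites), above it at 14 and below it at 2. The 42 sites held a median of 72 reads over both libraries and all sites a median of 22, and intervals narrow with reads. The median ratio was 1.23 over the 42 sites and 1.29 over all sites. Over the 25 called in both it was 1.16. By window it was 1.23 at Irf4, 1.05 at Batf and 0.731 at Spi1. At Irf8 it was 1.76 over the 8 sites and 1.04 over the 4 called in both.

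The sites at these genes were compared between the libraries taken one at a time. With the caller run on each library alone at 15561681 reads, 25 of the 42 sites (59.5%) were called in both, against 28.5% of all sites. The 42 sites held more reads than most sites (medians of 72 and 22), and the part of this in the share was not tested. Another 9 were called in the IL-4 library alone, 5 in the comparison library alone and 3 only when the libraries were summed. Over the genome the IL-4 library also had more called sites. Of 110381 sites, 62966 were called in the IL-4 library and 44495 in the comparison library, and both counts include the 31408 called in both. At the 25 sites called in both, the summits of the 2 libraries lay a median of 16 bp apart, and at 22 of them within 50 bp. Reads of the plus and minus strands lay a median of 124.5 bp apart over the 42 sites, close to the fragment length that the shift implies (127 bp). Reads were assigned to sites by their shifted centres, which by itself sets evenly spread reads of opposite strands about this far apart. The median distance is therefore no check of the sites. At 3 sites over 70% of reads lay on the same strand.

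**Figure D3:**
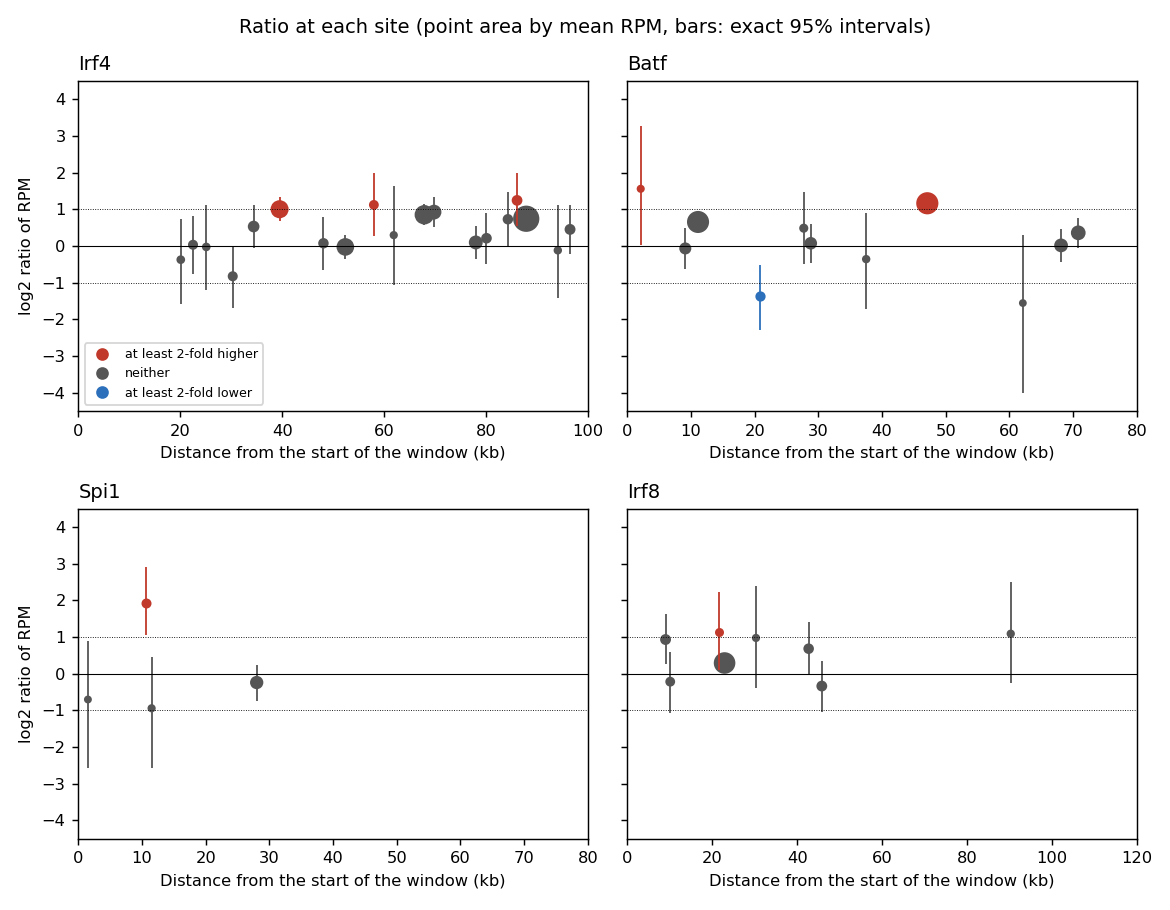
log2 ratio of RPM at each of the 42 sites (y axis, IL-4 library over comparison library) by distance from the start of its window (x axis, kb), with exact 95% intervals, point area by mean RPM, and dotted lines at a ratio of 2 and 0.5. The 7 higher sites are red and the lower one, at Batf, is blue, and most other intervals cross 0.

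Irf4, induced by antigen receptor signals in proportion to their strength, had the strongest single site and the most sites. Its sites spread over 76.8 kb, from 30820001 to 30896800, with a median gap of 3900 bp between neighbours and none in the first 20 kb of the window. The strongest, at chr13:30887401-30888400, held 376 reads (16.4 RPM) in the comparison library and 427 (27.4 RPM) in the IL-4 library. Its ratio was 1.68 (1.46 to 1.93), and its mean RPM stood at percentile 99.9 of all sites. It held 25.3% and 28.4% of all reads in the Irf4 sites. Its 2 parts, divided at the bin with fewest reads after the values had been seen, differed in ratio. The larger part, from 30887801 to 30888400, went from 12.8 to 23.1 RPM, a ratio of 1.81 (1.55 to 2.12). The smaller, from 30887401 to 30887600, went from 3.0 to 3.73 RPM, a ratio of 1.24 (0.859 to 1.78), whose interval overlaps the first.

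The next 3 Irf4 sites by strength did not share a single ratio. The second site, at chr13:30867601-30868200, had 178 reads (7.75 RPM) and 218 (14.0 RPM), a ratio of 1.81 (1.48 to 2.22). The third, at chr13:30839201-30839800, had 139 reads (6.05 RPM) and 189 (12.1 RPM), a ratio of 2.01 (1.60 to 2.52), and passed the size rule at its very bound. Within it the middle bin, from 30839401, had 9 reads against 32, a ratio of 5.25 (2.45 to 12.5), a bin singled out after its value was seen. The fourth, at chr13:30852201-30852600, stood apart from these. It held 198 reads (8.62 RPM) and 132 (8.48 RPM), a ratio of 0.984 (0.783 to 1.23), although it was the second strongest Irf4 site in the comparison library. Its summits, 11 bp apart, held 131 and 86 fragments. With sites called in both scaled to a median of 1, the third site came to 1.53 (1.22 to 1.92) and the fourth to 0.751 (0.598 to 0.941). The intervals of these sites do not overlap under either scaling.

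The other higher sites at Irf4 were weaker. At chr13:30886001-30886200 there were 28 reads (1.22 RPM) and 45 (2.89 RPM), a ratio of 2.37 (1.45 to 3.95). At chr13:30857801-30858200 there were 21 reads (0.914 RPM) and 31 (1.99 RPM), a ratio of 2.18 (1.21 to 3.99). Neither was called when the comparison library was taken by itself. The remaining 13 Irf4 sites ran from 0.523 to 4.44 RPM in the comparison library and from 0.643 to 7.20 RPM in the IL-4 library. Their ratios ran from 0.565 to 1.90, and 10 of the 13 intervals included 1. By 20-kb segments the ratio was lowest in the first, at 1.14 (0.982 to 1.33; 17.1 and 19.5 RPM), and highest in the last, at 1.52 (1.39 to 1.66; 43.8 and 66.4 RPM). The last segment holds the strongest site of the gene.

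**Figure D4:**
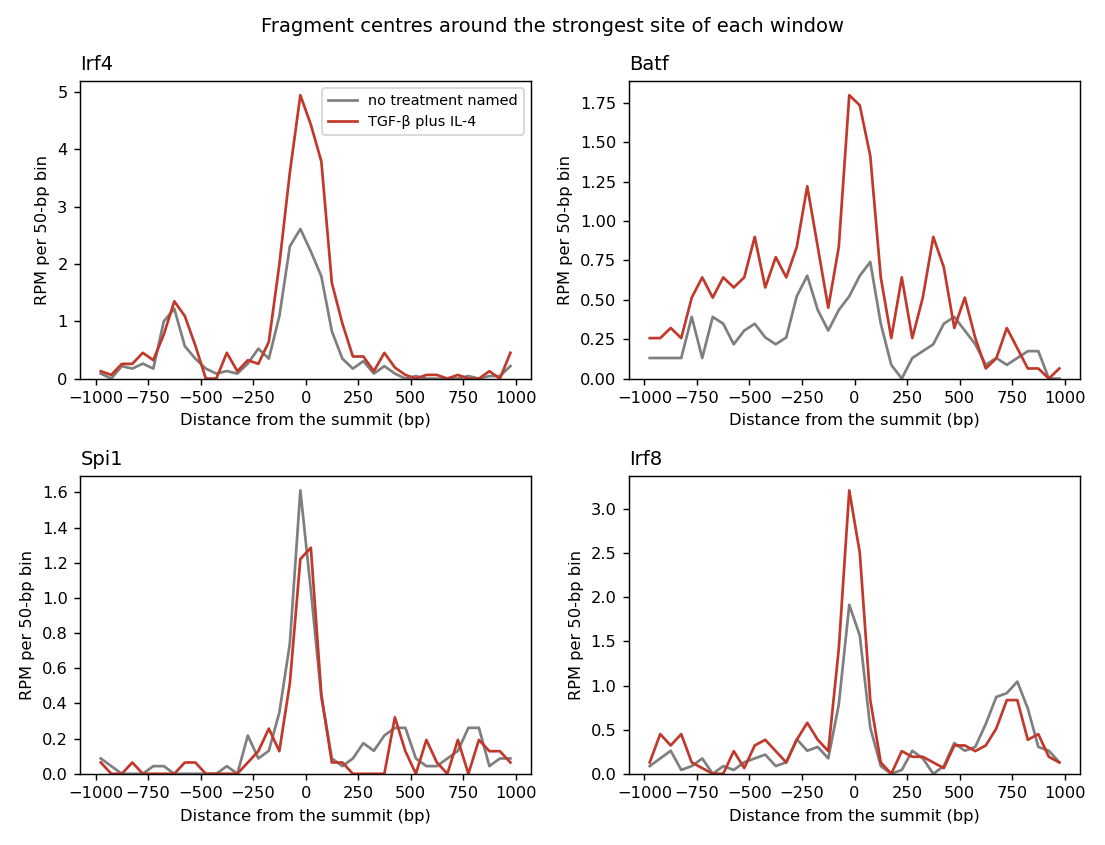
RPM of fragment centres in 50-bp bins (y axis) within 1 kb of the summit of the strongest site of each window (x axis, bp), for the IL-4 library, whose summit sets the zero, and the comparison library. The central bins at Irf4 reach 4.95 and 2.61 RPM, and those at Spi1 1.29 and 1.61 RPM; the Batf site is broad, and Irf8 has a further summit to the right.

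Batf carried a sharp and a broad site of similar strength. The broad one, at chr12:87046401-87047800, spans 1400 bp and held 211 reads (9.19 RPM) in the comparison library and 321 (20.6 RPM) in the IL-4 library. Its ratio was 2.24 (1.88 to 2.68), and it passed the size rule on the largest number of reads of any higher site in the 4 windows. All 7 of its bins had ratios over 1, from 1.79 (1.05 to 3.07) to 5.08 (2.36 to 12.1). Its summits of 41 and 65 fragments were low for its reads, and its median strand distance was 195 bp. The sharp site, at chr12:87010801-87011400, had 263 reads (11.5 RPM) and 281 (18.1 RPM), a ratio of 1.58 (1.33 to 1.87), with summits of 176 and 185 fragments. The sharp site led in the comparison library and the broad one in the IL-4 library. Without the broad site the ratio of the whole Batf window was 1.13 (1.06 to 1.21).

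A single Batf site was lower. At chr12:87020801-87021000 there were 57 reads (2.48 RPM) in the comparison library and 15 (0.964 RPM) in the IL-4 library, a ratio of 0.388 (0.204 to 0.695). It was called in each library alone, its summits of 52 and 15 fragments lay 10 bp apart, and 94.7% and 100% of its reads had the top mapping quality. The 2 sites at the far end differed little. At chr12:87070401-87071200 the RPM was 4.70 and 6.04, a ratio of 1.28 (0.964 to 1.71), and at chr12:87067801-87068400 the values were 4.44 and 4.5 RPM, a ratio of 1.01 (0.736 to 1.39). The remaining higher site, at chr12:87002001-87002200, rested on 6 reads against 12, a ratio of 2.95 whose interval of 1.03 to 9.58 barely left out 1, and was called in the IL-4 library alone. The other 5 Batf sites had ratios from 0.341 to 1.40, and all 5 intervals included 1. By segment, the ratio was 1.32 (1.18 to 1.47) and 1.59 (1.42 to 1.78) in the 2 segments with the strong sites and 0.962 and 0.984 in the other 2.

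Irf8, a partner of PU.1 in myeloid and B cells, had a single prominent site with 2 summits. It lay at chr8:123252201-123253600 and held 289 reads (12.6 RPM) in the comparison library and 240 (15.4 RPM) in the IL-4 library, a ratio of 1.23 (1.03 to 1.46) that turned to 0.936 (0.785 to 1.11) when sites called in both were scaled to a median of 1. It held 60.3% and 57.6% of the reads in Irf8 sites. Its parts, divided after the values had been seen, pointed in opposite directions. The part from 123252201 to 123252800 went from 144 reads (6.27 RPM) to 156 (10.0 RPM), a ratio of 1.60 (1.27 to 2.02). The part from 123253001 to 123253600 went from 135 reads (5.88 RPM) to 73 (4.69 RPM), a ratio of 0.798 (0.592 to 1.07). The intervals of these parts do not overlap. Within 200 bp of the main summit alone, the ratio was 1.65 (1.28 to 2.12).

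The remaining Irf8 sites were weak. Sites at chr8:123275601-123276000 and chr8:123272601-123272800 had 2.35 and 1.48 RPM in the comparison library and 1.86 and 2.38 RPM in the IL-4 library. Their ratios of 0.792 (0.487 to 1.27) and 1.61 (0.981 to 2.64) both had intervals that included 1. At chr8:123238801-123239200 the ratio was 1.91 (1.19 to 3.08), from 34 reads (1.48 RPM) to 44 (2.83 RPM). Only 21.8% of its reads lay on the plus strand and its strand distance was 9 bp, so it lacked the paired strands seen at the sites above. The site past the size rule, at chr8:123251601-123251800, had 14 reads against 21, a ratio of 2.21 (1.07 to 4.71), and was called in the IL-4 library alone. At this site 50% and 52.4% of reads had the highest mapping quality. Over the whole libraries the shares were 87.8% and 88.3%. The part of strand and mapping quality in these ratios was not tested. The other 3 Irf8 sites had 0.392 to 1.57 RPM and 0.771 to 1.35 RPM, with 3 of 3 intervals including 1. In each alternative setting of site calling, 4 of the 5 Irf8 sites described singly overlapped a called site. Of all 8 Irf8 sites, 6 did so with a second random thinning and 5 with reads of the highest mapping quality.

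Ratios at Irf8 were below 1 in the later segments of its window. The first 20 kb had a ratio of 1.23 (1.09 to 1.39; 24.7 and 30.5 RPM) and the second 1.08 (0.966 to 1.20). The third had 0.876 (0.761 to 1.01). The fourth, which held 0 sites, had 16.7 and 11 RPM, a ratio of 0.657 (0.546 to 0.789), the lowest of the 19 segments in the 4 windows. The fifth and sixth had 0.789 (0.68 to 0.914) and 0.761 (0.653 to 0.885) with 1 and 0 sites. No input library was used here, so GATA3-dependent reads in these stretches cannot be told apart from background that differs between the libraries.

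Spi1 had the fewest sites, and its strongest was the weakest of the 4 leading sites. Its strongest, at chr2:90927801-90928200, held 101 reads (4.40 RPM) in the comparison library and 58 (3.73 RPM) in the IL-4 library, a ratio of 0.847 (0.603 to 1.18). It held 69.7% and 53.7% of the reads in Spi1 sites, stood at percentile 94.0 of all sites by mean RPM, and was the only Spi1 site called in both libraries alone. With scaling by total reads the strongest sites of the other 3 windows all had intervals above 1, while that of Spi1 included 1. The one higher site lay at chr2:90910401-90910800. It had 15 reads (0.653 RPM) and 39 (2.51 RPM), a ratio of 3.84 (2.07 to 7.49), the highest of the 42 sites, and it was called in the IL-4 library alone. Its summits lay 280 bp apart, with 9 and 18 fragments. The sites at chr2:90911401-90911600 and chr2:90901401-90901600 had 17 and 12 reads in the comparison library and 6 and 5 in the IL-4 library, and the intervals of their ratios, 0.521 and 0.615, included 1. The first 20 kb, with 3 of the 4 sites, had a ratio of 1.17 (0.999 to 1.36), and the other 3 segments had 0.815, 0.821 and 0.763, all with intervals below 1. With bins shifted by 100 bp only 2 of the 4 sites overlapped a called site.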

How the data were processed

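Each line of the 2 files is a 25-base read aligned to mm9, with its strand and a mapping quality score (11 to 42), as deposited by the authors. CASAVA 1.0 and Bowtie2 are named per the submitters' processing notes, with settings not given in the sources used here. The file names state duplicate removal, and 0 reads shared a position and strand, so a summit can hold at most 254 fragments per library. Reads were counted here with Python 3.11.15, numpy 2.4.6, scipy 1.17.1 and pandas 2.3.3, with figures from matplotlib 3.10.9. The 1117 and 1161 mitochondrial reads were left out.

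Read centres were counted in 200-bp bins over the whole genome. Site calling used a random 15561681 reads of the deeper library, and the sum of both libraries was set against the larger of the genome rate and the rate in 25 bins on each side. Called bins were merged across at most 1 bin. Ratios used all reads. On simulated bins for the summed libraries the caller recovered 47 of 300 bins raised 4-fold, 296 of 300 raised 8-fold and 300 of 300 raised 16-fold. The size rule was run on 110381 simulated sites for the comparison of the libraries. It marked as higher 66 of 200 sites raised 2-fold and 155 of 200 raised 4-fold. In the same runs it marked 2546 and 2529 unchanged sites as higher or lower. Unchanged sites were simulated at a ratio of 1, whereas the median over all real sites was 1.29. These counts therefore do not give the error rate of the higher sites described here.

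In each window the 4 sites with the highest mean RPM and every site past the size rule are described singly, 21 in all. The members and lists were chosen with earlier results of these data known. A search for GATA letters in sites and a list of other T helper 9 genes had been planned for an mm9 genome and annotation, which were not used here.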

Additional observations from a re-analysis of the deposited data

How the results depend on the processing

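With sites called in both libraries scaled to a median ratio of 1, every log2 ratio falls by 0.39. The window ratios became 1.01 at Irf4, 0.945 at Batf, 0.672 at Spi1 and 0.709 at Irf8. Higher and lower sites in the windows then numbered 1 and 3, against 4.88% and 5.24% of all sites, and the strongest Irf8 site turned to 0.936. With scaling by reads outside sites Irf4 came to 1.40 and Batf to 1.30. Spi1 then came to 0.928 (0.858 to 1.004) and Irf8 to 0.978 (0.926 to 1.034), with intervals that included 1. Reads inside sites alone gave 1.49 at Irf4, 1.44 at Batf, and ratios above 1 at Spi1 (1.10) and Irf8 (1.28), where all reads gave ratios below 1. The Spi1 value rests on 1 site called in the IL-4 library alone, and without it the ratio inside sites was 0.783. With sites called in both libraries only, chosen after seeing the data, the ratio inside sites was 1.48 at Irf4, 1.46 at Batf, 0.847 at Spi1 and 1.17 at Irf8. Among these sites 2 in the windows were higher and 1 lower, against 11.2% and 1.04% of all such sites. Reads outside sites alone gave 1.22 at Irf4, 1.09 at Batf and 0.867 at Irf8. Without its strongest site Batf had 1.13.

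At a q under 1e-05 the genome had 47026 sites, Spi1 had 2, and 18.9% of all sites were higher. Spi1 also had 2 sites with ends shifted by 100 bp. With the background from 5 kb Batf had 17 sites. When sites were called in all reads, 4 window sites were higher and 1 lower, against 9.12% and 3.19% of all sites. Bins shifted by 100 bp, and reads within 200 bp of the summit, each gave 2 lower sites in the windows. Of all sites 1.79% and 2.32% were lower in these settings. At a ratio of 1.5, 13 window sites were higher and 2 lower, against 17.8% and 2.3% of all sites. Of the 123 values recomputed for windows and counts, 90 stayed within their interval or within 1.5 times. The cause of the changes was not tested. No paired analysis was possible because each condition has 1 library, and no library could be left out.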
